A study of Argopecten irradians with 2 samples.

Results

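The iron, copper and zinc handling genes of the bay scallop (*Argopecten irradians*) gill were examined in 2 RNA libraries, one from control scallops and one from scallops exposed to the algicide palmitoleic acid (PA). A gene is represented here by a unigene, a transcript sequence put together de novo from the reads and named from its best database hit. The genes were chosen by words for ferritin, metallothionein, zinc transporters, copper-transporting ATPases, transferrin, ferroportin, hephaestin, natural resistance-associated macrophage protein, heme oxygenase, superoxide dismutase, iron-sulfur cluster assembly and hemoglobin in the Swiss-Prot or Nr description. They were kept where both libraries together gave at least 10 reads. These words matched 72 of 60308 unigenes, and 61 of the 72 were kept, out of 38391 unigenes of the whole assembly with that many reads. The PA scallops were held in 80 mg/L PA dissolved in dimethyl sulphoxide for 48 h, and the control scallops in an equal volume of dimethyl sulphoxide alone. The scallops came from a wholesale market and were acclimatized in the laboratory before the exposure. Each library was made from the gills of 18 pooled scallops, so there was 1 library per condition and no replicate check on any difference below.

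Iron, copper and zinc are needed by many enzymes and are harmful when free, so cells keep them bound. Ferritin shells store iron in a mineral core, and metallothioneins are small cysteine-rich proteins that bind zinc, copper and cadmium and are induced by metals in molluscs. Transporters of the ZIP family (SLC39) carry zinc into the cytosol and those of the ZnT family (SLC30) carry it out, while NRAMP proteins bring divalent iron and manganese into the cytosol. Hephaestin and ceruloplasmin are multicopper oxidases that oxidize ferrous iron as it leaves the cell in vertebrates. Gills of bivalves filter sea water and are a main site of metal uptake.

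On the unigenes lay 10305483 reads of control and 10414545 of PA. A read count below is the deposited expected count, the number of read pairs assigned to a unigene, and a level is the FPKM, the fragments per kilobase of unigene relative to the mapped total of the library. The 2 libraries were compared unigene by unigene with the Audic-Claverie test on read counts, and a unigene was called where the Benjamini-Hochberg FDR over all unigenes was at most 0.001 and the FPKM differed at least 2-fold. That test compares 2 libraries, not the conditions. Intervals are 95% exact (Clopper-Pearson) intervals of the PA share of a unigene's reads, written as log2 fold changes, and cover counting error only. Gill cilia markers (tektins, radial spoke heads, axonemal dynein heavy chains and the like) were present in both libraries, with 94 unigenes of at least 10 reads summing to 484 FPKM in control and 1041 FPKM in PA, 26 of them called higher and 0 lower. Of all 162 cilia unigenes matched, 28 had no read in control and 3 had none in PA. Muscle markers (51 unigenes) summed to 363 and 449 FPKM, hemocyte markers (9) to 402 and 581 FPKM, digestive gland markers (23) to 163 and 119 FPKM, and gonad markers (2) to 1.32 and 4.69 FPKM in control and PA. The part of these marker shifts in the results below was not tested. In such bulk samples, fewer cells of a type and less RNA per cell cannot be told apart.

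Among the 61 metal genes, 17 were called lower in PA and 6 higher. Over all 38391 unigenes with at least 10 reads, 10.7% were called lower and 13.3% higher, against 27.9% and 9.84% of the metal genes. The metal genes were more abundant, with a median of 12.6 FPKM in control and 9.95 in PA. Over all these unigenes the medians were 3.12 and 3.52 FPKM. A call depends on the read count, and the part of this in the shares was not tested. By the 2-fold change alone, 17 metal genes were lower and 9 higher, that is 27.9% and 14.8% of them, where all unigenes gave 19.0% lower and 27.3% higher. The median log2 fold change (PA over control) was -0.45 over the metal genes and 0.21 over all 38391 unigenes. Of the metal genes 39 had a fold change below 0 and 22 above it. The whole distribution moved with the scaling: TMM factors lowered every log2 fold change by 0.25 and the median of ratios lowered it by 0.22. Under TMM factors 21 metal genes were called lower and 4 higher, with 14.0% of all unigenes lower and 9.97% higher. The 17 metal genes called lower were called lower under both scalings, which lower every value and so put these calls to little test.

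The metal genes held 2.71% of all control reads and 1.35% of all PA reads. Of these reads 79.0% in control and 78.0% in PA lay on 1 ferritin unigene, so sums over all metal genes follow that unigene. Levels spanned 4 orders of magnitude, and 12 of the 61 reached 100 FPKM in control and 5 in PA. At the low end, 27 of the 61 were under 10 FPKM in control and 31 in PA.

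**Figure D1:**
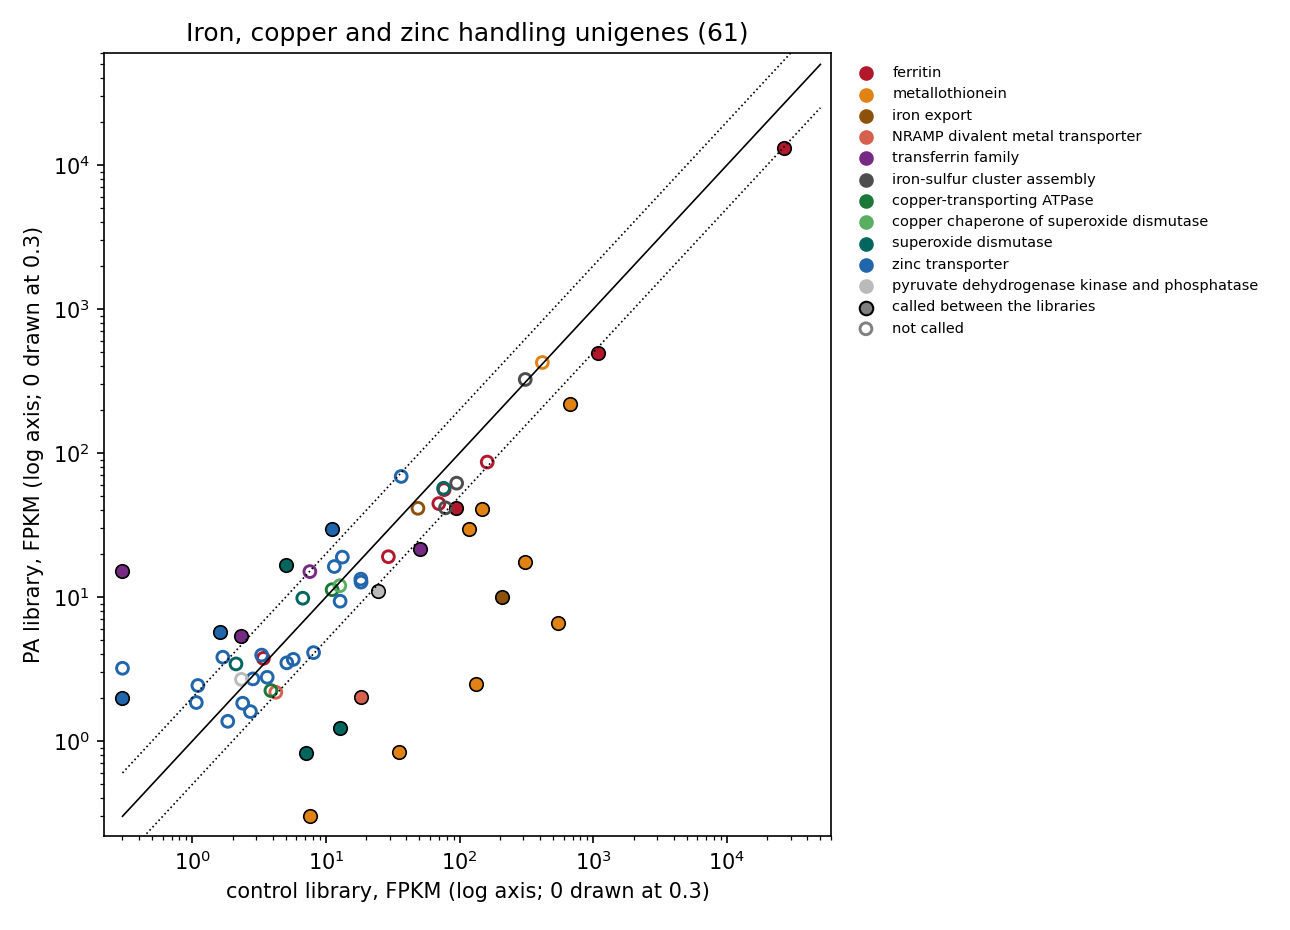
Level of each of the 61 metal genes in the control library (x axis, FPKM, log scale) and the PA library (y axis, FPKM, log scale), coloured by role; filled points with a black edge were called between the libraries and open points were not, the solid line marks equal levels and the dotted lines a 2-fold difference. The hephaestin-like unigene and 8 of the 9 metallothioneins lie below the lower dotted line, Unigene7883_All lies on the line of equal levels, and 3 unigenes with no read in control are drawn at 0.3 on the x axis.

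Ferritin, the iron store, was the most abundant product of the group and was lower in the PA library. Of 8 ferritin unigenes 3 were called lower, 0 higher, and 5 were not called. None of the 3 calls was kept by edgeR when a coefficient of variation of 0.2 between scallop pools was assumed. The role summed to 28035 FPKM in control and 13787 FPKM in PA, with 229464 and 113767 reads. Unigene18676_All, whose best hit is ferritin subunit 2 of the bay scallop itself, was at 26510 FPKM in control (221025 reads) and 13038 FPKM in PA (109720 reads). It ranked 2 among all unigenes by FPKM in both libraries and took 2.14% of control reads and 1.05% of PA reads. Its level was 2.03-fold lower in PA, a log2 fold change of -1.02 (interval -1.04 to -1.02), so it lay just past the 2-fold limit with very narrow counting error. Without this unigene the other 7 ferritins summed to 8439 and 4047 reads, a log2 fold change of -1.08.

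The 2 other called ferritins fell by similar amounts. Unigene13196_All, a ferritin 1 hit, was at 1092 FPKM in control and 497 FPKM in PA, with a log2 fold change of -1.13 (interval -1.202 to -1.07). Unigene5896_All, a ferritin 3 hit, was at 93.7 FPKM and 41.7 FPKM, with a log2 fold change of -1.17 (interval -1.32 to -1.02). All 3 were thus between 2.03-fold and 2.25-fold lower, although their levels in control differed by more than 2 orders of magnitude.

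The other 5 ferritins differed by less than 2-fold and were not called, 4 of them with a log2 fold change below 0. Cluster CL4632 is a set of 3 related contigs whose reads can be split between them by the counting. Its Contig1, Contig2 and Contig3 were at 76.5, 161 and 69.8 FPKM in control and at 55.7, 86.5 and 44.5 FPKM in PA. Summed, the cluster had 1140 reads in control and 681 in PA (log2 fold change -0.76, interval -0.90 to -0.62). Under both other scalings CL4632.Contig2_All was called lower. Unigene7253_All, a ferritin 3 hit of the Yesso scallop, was at 29.3 and 19.1 FPKM (log2 fold change -0.62). Unigene19033_All had 9 and 10 reads, and its best Nr hit is a human hypothetical protein, with ferritin light chain as Swiss-Prot and KEGG name, whereas all 7 others hit the KEGG ferritin heavy chain entry. Leaving it out, all 7 ferritins had a log2 fold change below 0, from -1.17 to -0.46, and this held under TMM factors and the median of ratios, which lower every value.

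Metallothioneins were the role with the most calls: 8 of 9 unigenes were called lower in PA and 0 higher. The call of Unigene12634_All was not kept by edgeR with an assumed coefficient of variation of 0.2. All 9 had metallothionein of the bay scallop as best Nr hit. Together they were at 2372 FPKM in control and 741 FPKM in PA, and the median log2 fold change was -4.14. Unlike the ferritins, the unigenes of this role differed widely among themselves, from no difference to a loss of all reads.

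The 4 most abundant in control show that spread. Unigene12634_All was at 670 FPKM in control and 218 FPKM in PA, a fall of 3.07-fold (log2 fold change -1.62, interval -1.72 to -1.52). Unigene7880_All was at 541 FPKM in control (7807 reads) and 6.59 FPKM in PA (96 reads), 82.1-fold lower (log2 fold change -6.36, interval -6.67 to -6.07). It went from rank 148 of all unigenes by FPKM to rank 9763. Unigene7883_All was at 416 FPKM in control (6641 reads) and 425 FPKM in PA (6862 reads, log2 fold change 0.03, interval -0.02 to 0.08). This unigene was the exception of the role, and its sign turned under TMM factors (-0.21) and the median of ratios (-0.19). Unigene21298_All was at 307 FPKM and 17.4 FPKM, 17.7-fold lower (log2 fold change -4.14, interval -4.38 to -3.92).

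The 5 less abundant metallothioneins were all called lower. Unigene15569_All was at 147 FPKM in control and 40.8 FPKM in PA (log2 fold change -1.84). Cluster CL2241, with 2 contigs hitting metallothionein 10-II, had 1568 reads in control and 207 in PA (log2 fold change -2.94, interval -3.15 to -2.73). The contigs of this cluster differed: Contig1 was at 117 and 29.6 FPKM (log2 fold change -1.98), and Contig2 at 132 and 2.49 FPKM (log2 fold change -5.72). Unigene2995_All had 252 reads in control and 6 in PA, 42.2-fold lower (interval -6.87 to -4.27 on the log2 scale). Unigene21740_All had 74 reads in control and none in PA, so it was at least 24.9-fold lower, reckoned against 3 reads in the PA library.

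**Figure D2:**
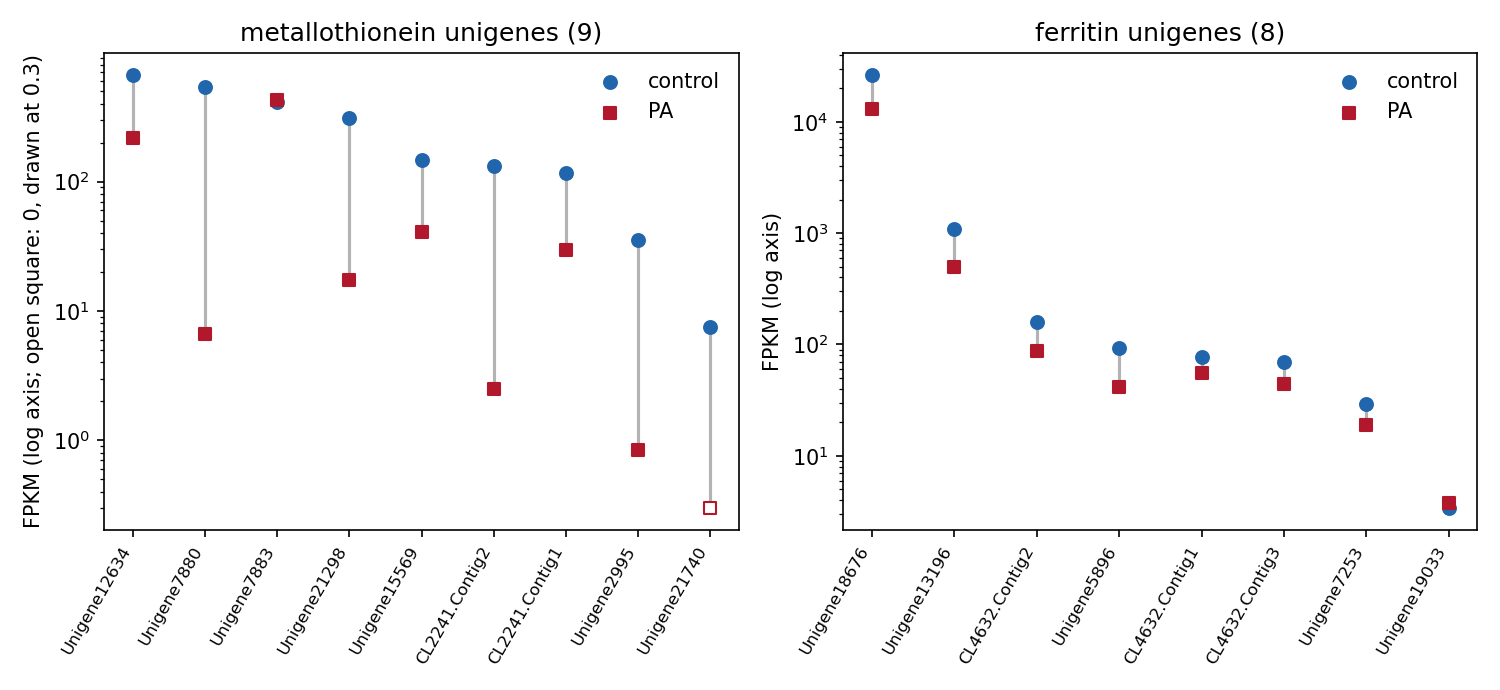
Levels of the 9 metallothionein and 8 ferritin unigenes (x axis) in FPKM on a log y axis, with a blue circle for the control library and a red square for the PA library. The ferritins share a similar small step down except Unigene19033_All, while the metallothioneins range from no step (Unigene7883_All) to drops over 80-fold (Unigene7880_All), and the open square stands for a level of 0 drawn at 0.3.

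The metallothioneins fell into 2 sets by the strength of their database hit, a feature that the choice of genes did not use. Unigene7883_All, Unigene12634_All and Unigene15569_All matched the bay scallop protein weakly (E value above 1e-20), and their log2 fold changes lay between -1.84 and 0.03. The 6 others matched it strongly (E value at most 1e-20), and their log2 fold changes were -1.98 or lower, with 12626 reads in control and 476 in PA in total. The weakly matching set held 10658 reads in control and 8145 in PA. The split was seen after the values, so it is given without a test. Of the 6 strong matches, 3 (Unigene7880_All, Unigene2995_All and Unigene21740_All) carried the InterPro signature of mollusc metallothioneins, while their Swiss-Prot best hits were other cysteine-rich proteins (keratin-associated and chorion proteins). In control, Unigene7883_All held 17.5% of the metallothionein FPKM, and in PA it held 57.4%. Without it the 8 others had 16643 reads in control and 1759 in PA, a log2 fold change of -3.26 in place of -1.45 for all 9.

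Iron export was represented by 2 multicopper oxidases, of which 1 was called lower. Unigene20942_All, a hephaestin-like protein 1 hit, was at 208 FPKM in control (8366 reads) and 9.95 FPKM in PA (404 reads), 20.9-fold lower (log2 fold change -4.39, interval -4.53 to -4.24). Unigene479_All, whose Swiss-Prot hit is hephaestin and whose KEGG entry is ceruloplasmin, was at 48.7 FPKM and 41.3 FPKM (log2 fold change -0.24, interval -0.34 to -0.14) and was not called. The hephaestin-like unigene was thus the more abundant of the 2 in control and the less abundant in PA. No unigene was named ferroportin, the iron exporter itself. Outside the words lay 4 short unigenes hitting solute carrier family 40 member 1, another name of ferroportin: Unigene37340_All with 2 reads in control and 0 in PA, Unigene41765_All with 2 and 9, Unigene46885_All with 1 and 6, and Unigene47720_All with 0 and 3.

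Divalent metal uptake by NRAMP proteins had 2 unigenes, and 1 was called lower. CL4477.Contig2_All, a hit to the divalent metal transporter of the Yesso scallop, was at 18.1 FPKM in control (446 reads) and 2.01 FPKM in PA (50 reads), 9.02-fold lower (log2 fold change -3.17, interval -3.62 to -2.75). The only other contig of its cluster, which has no annotation and is no member, had 41.2 reads in control and none in PA. Unigene15154_All, a natural resistance-associated macrophage protein 2-like hit, was at 4.21 and 2.18 FPKM (log2 fold change -0.95, interval -1.50 to -0.41). It was not called, but was called lower under both other scalings.

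The transferrin family, proteins that bind ferric iron, was present as melanotransferrin, the form anchored at the cell surface in mammals. All 4 unigenes were contigs of 1 cluster, CL1912, and they went in different directions. Contig1 fell from 50.3 FPKM (2013 reads) to 21.4 FPKM (865 reads, log2 fold change -1.23, interval -1.35 to -1.12). Contig2 had no read in control and 613 in PA, so it was at least 202-fold higher, reckoned against 3 control reads. Contig4 rose from 2.32 to 5.34 FPKM (log2 fold change 1.203), and Contig3 was at 7.57 and 15.0 FPKM (log2 fold change 0.99), just under the 2-fold limit. Summed over the cluster, melanotransferrin had 2373 reads in control and 2228 in PA (log2 fold change -0.11, interval -0.19 to -0.02). The calls on single contigs thus stand beside a summed count within 2-fold, and how the counting split the reads between contigs was not tested. Contig4 was no longer called under either other scaling.

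Reads of the same cluster were split in unlike ways in several roles. The 61 unigenes came from 51 clusters and single unigenes, and 18 of them were contigs of 8 clusters. With the metal gene contigs of each cluster summed, 51 entries remained, of which 15 were called lower and 3 higher. Over all 38381 entries tested with this summing, 10.7% were called lower and 13.3% higher. Contigs of clusters without metal genes were not summed there, so these shares are no like-for-like background for the 51 entries.

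**Figure D3:**
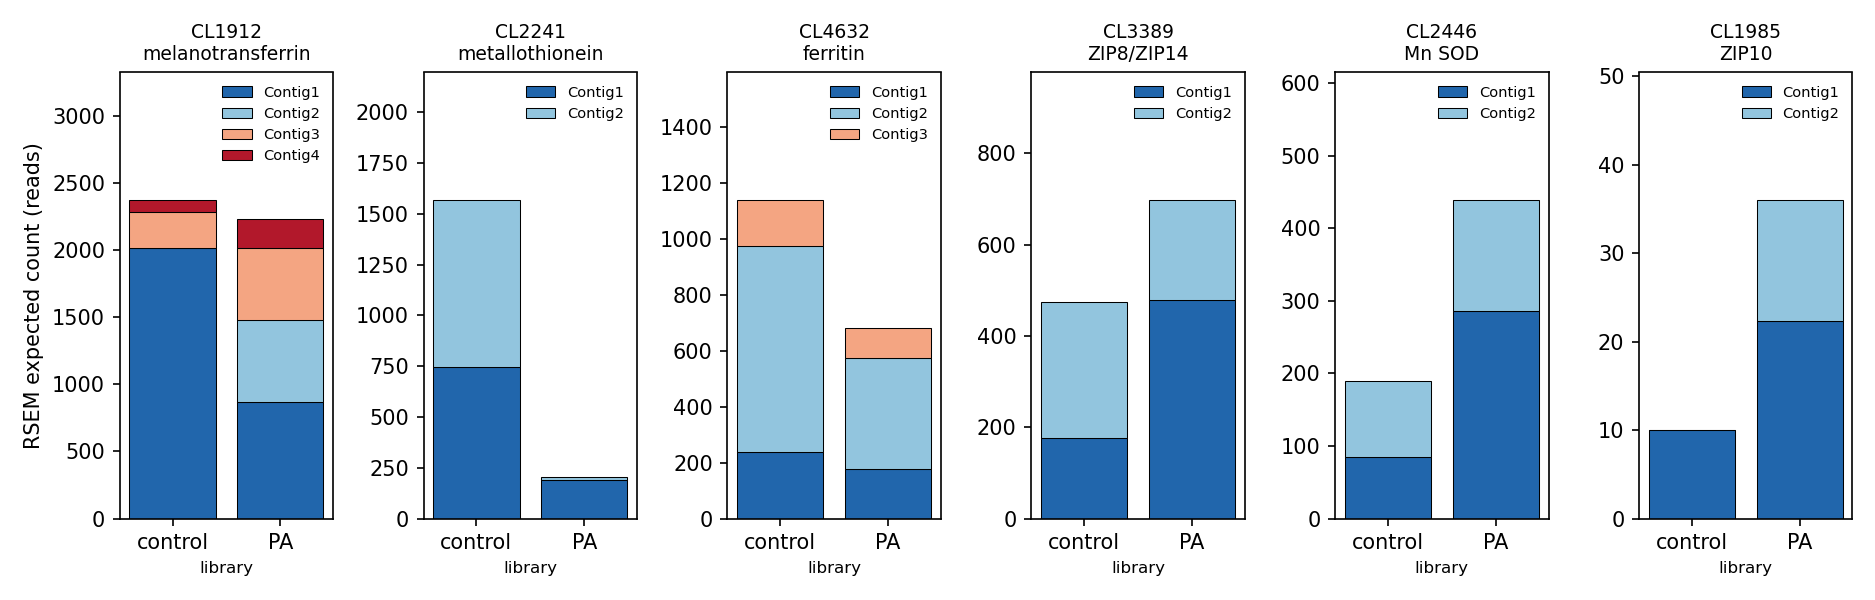
Read counts (RSEM expected counts, linear y axes that differ between panels) in the control and PA libraries for 6 clusters, with bars stacked by contig. The CL1912 bars are nearly equal in height (2373 and 2228 reads) although their contigs differ, whereas the CL2241 metallothionein bar drops from 1568 to 207 reads.

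Iron-sulfur cluster assembly, which builds the iron-sulfur cofactors of mitochondrial enzymes, had 3 unigenes and none was called. The scaffold ISCU (Unigene16436_All) was at 310 FPKM in control and 324 FPKM in PA, a log2 fold change of 0.07 (interval 0.00 to 0.13) that turned to -0.18 under TMM factors and -0.15 under the median of ratios. ISCA1 (Unigene9278_All), a protein of the later assembly steps, was at 94.9 and 61.7 FPKM (log2 fold change -0.62). ISCA2 (Unigene10109_All), its partner, was at 78.3 and 41.6 FPKM (log2 fold change -0.91, interval -1.09 to -0.74) and was called lower under both other scalings.

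Copper handling had 3 unigenes and none was called. The copper-transporting ATPase, which pumps copper into the secretory pathway and out of the cell, was represented by cluster CL1479 with 676 reads in control and 670 in PA (log2 fold change -0.03, interval -0.18 to 0.13). Its longer contig, CL1479.Contig2_All, was at 11.1 and 11.2 FPKM, and the shorter CL1479.Contig1_All at 3.87 and 2.24 FPKM. The copper chaperone that loads copper into superoxide dismutase (Unigene16733_All) was at 12.7 FPKM in control and 11.98 FPKM in PA (log2 fold change -0.08, interval -0.33 to 0.16). Counting error alone allows a difference of this chaperone of up to a log2 fold change of -0.33, and variation between scallops adds to that.

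Superoxide dismutases, metal enzymes that turn superoxide into hydrogen peroxide, had 6 unigenes, of which 2 were called lower and 1 higher, the higher call being lost with an assumed coefficient of variation of 0.2. The direction went with the metal family that KEGG assigned. All 3 copper-zinc unigenes had a log2 fold change below 0, and all 3 iron-manganese unigenes one above it, a difference that was not tested. These signs were the same under TMM factors and the median of ratios.

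Of the copper-zinc enzymes, the cytoplasmic Unigene13503_All of the bay scallop was the most abundant, at 75.8 FPKM in control and 56.9 FPKM in PA (log2 fold change -0.41, interval -0.56 to -0.27), and was not called. Unigene6483_All, a 5165-base unigene, was at 12.6 FPKM (668 reads) and 1.23 FPKM (66 reads), 10.3-fold lower (log2 fold change -3.36, interval -3.74 to -2.99). Unigene29739_All had 51 reads in control and 6 in PA, 8.57-fold lower with a wide interval of -4.61 to -1.88. The large differences were thus on the rarer copper-zinc unigenes.

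The manganese enzyme of mitochondria, cluster CL2446, had 189 reads in control and 439 in PA (log2 fold change 1.201, interval 0.95 to 1.454). Its Contig1 rose from 5.01 FPKM to 16.6 FPKM (log2 fold change 1.73, interval 1.38 to 2.10), and its Contig2 was at 6.70 and 9.81 FPKM (log2 fold change 0.55). Unigene4777_All, the other unigene of this family, was at 2.12 and 3.43 FPKM (log2 fold change 0.69, interval 0.04 to 1.37) and was not called. The summed level of the 3 iron-manganese unigenes, 13.8 FPKM in control and 29.8 FPKM in PA, stayed below that of the copper-zinc unigenes, 95.5 and 59.0 FPKM.

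Zinc transporters were the largest role, with 22 unigenes: 3 were called higher, 0 lower, and 19 were not called. None of these calls was kept with an assumed coefficient of variation of 0.2. The sum was 163 FPKM in control and 213 FPKM in PA. The median log2 fold change was 0.09 and turned to -0.15 under TMM factors and -0.13 under the median of ratios, with 11 unigenes on either side of 0. By KEGG, 11 unigenes belonged to the ZIP family and 7 to the ZnT family. The remaining 4 carried a doubtful name: 3 had a KEGG entry for another protein (a regulator of G-protein signaling or centromere protein H), and Unigene21648_All had a weak hit to a mouse sequence.

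All 3 called zinc transporters were ZIP proteins, which import zinc into the cytosol. Unigene19401_All (ZIP10) rose from 1.60 FPKM (67 reads) to 5.67 FPKM (239 reads, log2 fold change 1.83, interval 1.42 to 2.23). CL3389.Contig1_All, with hits to ZIP8 and ZIP14, rose from 11.1 to 29.6 FPKM (log2 fold change 1.42, interval 1.17 to 1.68). Its cluster mate Contig2 was at 18.2 and 13.3 FPKM (log2 fold change -0.45), and the cluster had 475 reads in control and 698 in PA (log2 fold change 0.54, interval 0.37 to 0.71). The third call, CL1985.Contig2_All (ZIP10), had no read in control and 13.6 in PA, at least 4.50-fold higher against 3 reads. With Contig1 of that cluster it made 10 reads in control and 36 in PA, and its call was lost under both other scalings.

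The most abundant zinc transporter, Unigene8087_All (hits to ZIP4 and ZIP12), was at 36.5 FPKM in control (1778 reads) and 68.8 FPKM in PA (3381 reads). Its log2 fold change of 0.91 (interval 0.83 to 0.996) lay just below the 2-fold limit, so it was not called, though it accounted for most of the added reads of the role. The other ZIP unigenes were not called. ZIP11 (Unigene20743_All) was at 11.5 and 16.3 FPKM, ZIP1 (Unigene20718_All) at 18.3 and 12.7 FPKM, ZIP3 (Unigene13081_All) at 2.84 and 2.70 FPKM, and ZIP9 (Unigene2620_All) at 3.63 and 2.77 FPKM. Over its 11 unigenes the ZIP family had 2913 reads in control and 4878 in PA (log2 fold change 0.73, interval 0.66 to 0.80).

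None of the 7 ZnT unigenes, exporters of zinc from the cytosol, was called. ZnT6 (Unigene10215_All), a subunit of the transporter of the early secretory pathway, was at 13.2 FPKM in control and 18.9 FPKM in PA (log2 fold change 0.51, interval 0.30 to 0.73), and its partner ZnT5 (Unigene17182_All) at 3.30 and 3.95 FPKM. ZnT2 (Unigene9131_All), which fills vesicles with zinc, was at 8.07 and 4.11 FPKM (log2 fold change -0.97, interval -1.41 to -0.55) and was called lower under both other scalings. ZnT1 (Unigene2484_All), the exporter of the plasma membrane, was at 5.69 and 3.69 FPKM (log2 fold change -0.62). Summed over the 7, the ZnT family had 732 reads in control and 784 in PA (log2 fold change 0.08, interval -0.06 to 0.23). The difference between the ZIP and ZnT sums was not tested.

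**Figure D4:**
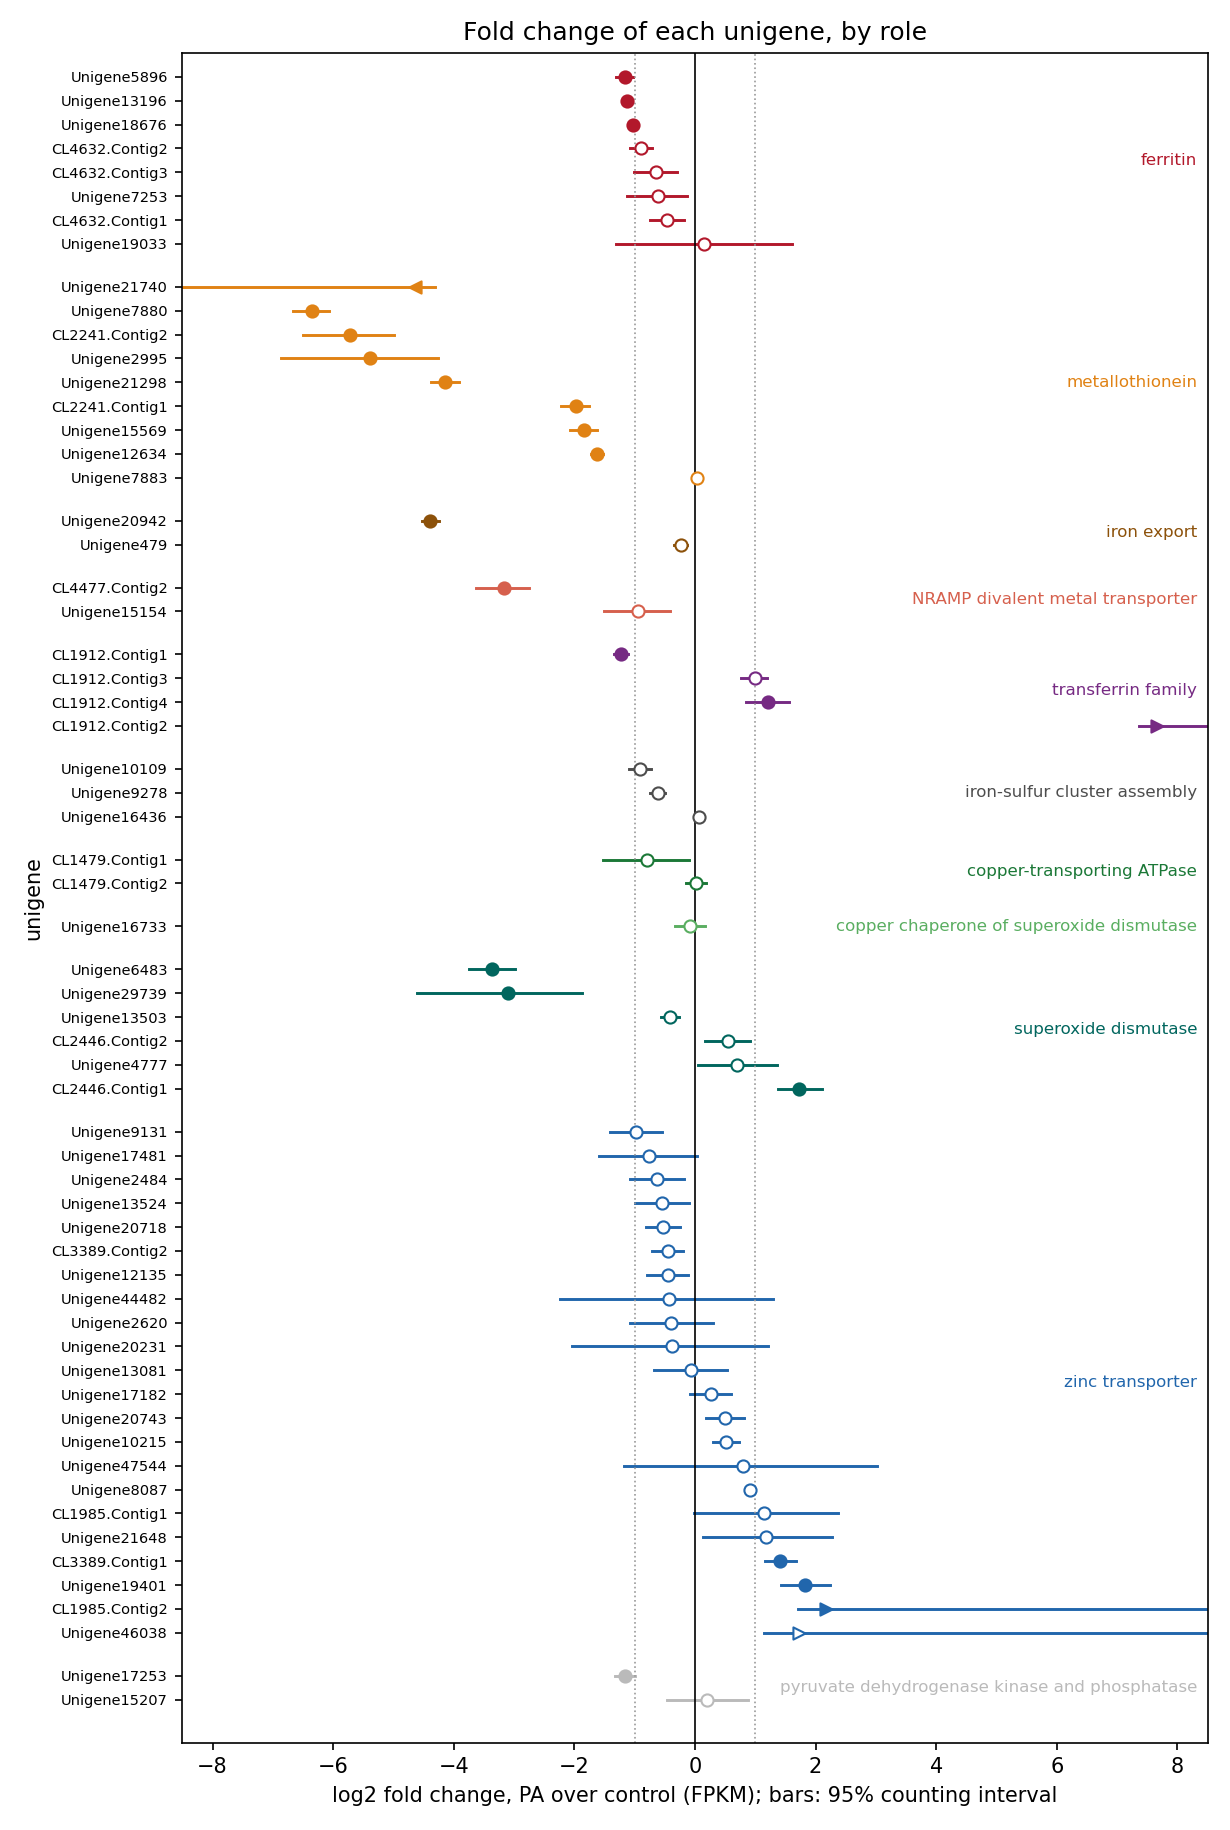
Log2 fold change (PA over control, x axis) of each of the 61 unigenes (y axis), grouped and coloured by role, with 95% counting intervals as bars. Filled symbols were called, open ones were not, triangles mark unigenes with no read in 1 library drawn at the bound against 3 reads, and the dotted lines mark 2-fold. Metallothioneins reach furthest to the left and zinc transporters spread on both sides of 0.

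Of the 61 unigenes 2 were not metal proteins: their Swiss-Prot names hold the word transferring. The pyruvate dehydrogenase kinase Unigene17253_All was called lower, at 24.6 FPKM in control and 11.02 FPKM in PA (log2 fold change -1.16), and the phosphatase Unigene15207_All was at 2.33 and 2.68 FPKM. Without these 2 and the 5 other doubtfully named unigenes, 16 of 54 were called lower and 6 higher. Doubt from a KEGG entry for another protein was applied to zinc transporters only. The 6 strongly matching metallothioneins, all called lower, also had KEGG entries for other proteins, such as a syndecan or protocadherin alpha, and stayed in the 54. The minimum of 10 reads left 11 matched unigenes out, namely 10 zinc transporter fragments and 1 truncated hemoglobin hit of a ciliate with 2 reads. Just inside it lay the ZnT9 fragment Unigene46038_All with 0 and 10 reads in control and PA, and just outside the ZIP fragment Unigene45221_All with 3 and 6 reads. No unigene was named heme oxygenase.

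Other genes of metal handling were collected by words for iron regulation, mitochondrial iron, heme, metal reductases, multicopper oxidases, copper uptake, metal-responsive transcription and globins. Of 74 such unigenes with at least 10 reads, 19 were called higher and 15 lower, beside 13.3% and 10.7% of all unigenes. The balance turned with the scaling, to 14 higher and 18 lower under TMM factors and 15 higher and 18 lower under the median of ratios. It turned over all unigenes as well, to 9.97% higher and 14.0% lower under TMM factors. Under the median of ratios, 10.4% of all unigenes were higher and 13.7% lower. The cytoplasmic aconitase hit CL114.Contig1_All, in vertebrates the iron regulatory protein that binds ferritin and transferrin receptor mRNA, fell from 15.9 to 3.34 FPKM (log2 fold change -2.25), and its cluster had 1175 and 400 reads. Another cytoplasmic aconitase hit, Unigene10229_All, was at 6.03 and 10.8 FPKM (log2 fold change 0.85) and was not called. Of 17 unigenes collected as mitochondrial iron and iron-sulfur proteins 5 were called higher and 5 lower, with a median log2 fold change of 0.36. Names in this list were not checked for doubt, and Unigene7965_All (0.78, not called) is named a histidine triad nucleotide-binding protein. Contigs of clusters CL4822, CL3280 and CL1416 were called in both directions. Frataxin (Unigene21252_All), a mitochondrial iron protein that aids iron-sulfur assembly, fell from 51.1 to 19.0 FPKM (log2 fold change -1.42). The cysteine desulfurase that supplies the sulfur (Unigene20908_All) was at 32.2 and 41.3 FPKM and was not called. The BolA-like contig CL4822.Contig2_All fell from 201 to 65.7 reads, but its cluster had 251 and 194 reads. Among the rises were the probable cysteine desulfurase contig CL4955.Contig2_All, from 1.29 to 5.81 FPKM, and the BolA-like Unigene2888_All, from 1.66 to 5.52 FPKM.

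MTF-1, the transcription factor that switches on metallothionein genes when zinc is high, was present as cluster CL1554 with 88 reads in control and 70 in PA. Its Contig1 was called lower (3.39 and 0.53 FPKM) and its Contig2 higher (0.96 and 2.66 FPKM), the latter call being lost under both other scalings. Of 7 unigenes collected as multicopper oxidases other than hephaestins, 6 laccase hits and 1 laccase domain protein, 5 were called higher and 0 lower. Among them Unigene6677_All rose from 1.55 FPKM (38 reads) to 20.1 FPKM (500 reads), a log2 fold change of 3.70, and Unigene10988_All from 2.31 to 6.78 FPKM. The laccase domain protein Unigene15656_All, also called higher, has no laccase name in Nr, so its place among multicopper oxidases is doubtful. The hephaestin-like Unigene20942_All and the called laccase hits thus went in opposite directions, a contrast that was not tested. The other hephaestin hit, Unigene479_All, was not called (log2 fold change -0.24).

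Copper uptake and chaperone unigenes were mixed, with 3 of 13 called higher and 4 lower. The lower calls included Contig1, Contig2 and Contig3 of 1 cluster, CL2360, a hit to high affinity copper uptake protein 1. Contig5 of CL2360 went the other way, from 438 to 729 reads, and was not called. ATOX1 hits in cluster CL102 went both ways: Contig13 fell from 48.6 to 14.7 FPKM, Contig14 rose from 12.1 to 41.4 FPKM, and Contig19 was at 38.8 and 22.2 FPKM. That cluster of 26 contigs had 10242 reads in control and 10613 in PA. Most of its contigs lay outside this list, so the sum is not that of the ATOX1 hits alone.

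Among reductases that make ferrous iron for uptake, the putative ferric-chelate reductase Unigene18670_All rose from 6.11 to 28.3 FPKM (log2 fold change 2.21). The STEAP2 contig CL5262.Contig1_All fell from 14.4 to 6.57 FPKM, with 639 and 622 reads over its cluster, and CL4569.Contig2_All was at 22.3 and 12.8 FPKM with 2085 and 2066 reads over its cluster. Of 10 such unigenes 2 were called higher and 1 lower.

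In heme synthesis, 1 of 9 unigenes was called higher and 0 lower. It was delta-aminolevulinic acid dehydratase (CL112.Contig1_All), an early enzyme of the pathway, which rose from 11.3 to 26.3 FPKM (log2 fold change 1.22) and lost its call under TMM factors (0.98). Ferrochelatase, which inserts the iron, was at 13.5 and 20.9 FPKM in CL4721.Contig1_All and was not called. In heme transport 3 of 9 unigenes were called lower, among them the HRG1 heme transporter CL1716.Contig1_All (113 and 48.8 reads) and CL2680.Contig2_All (8.97 and 4.39 FPKM), a hit to a folate transporter family. The neuroglobin cluster CL5217, oxygen-binding globins first known from nerve cells in vertebrates, had 9 reads in control and 86 in PA, and its Contig2 went from no read to 48.1, at least 15.9-fold higher against 3 reads. Its Contig1 rose from 1.38 to 5.76 FPKM, a call that was lost under both other scalings.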

How the data were processed

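RNA of the gills of 18 pooled scallops per condition was sequenced as 1 library per condition. Per the methods of the study, reads were filtered by the authors (SOAPnuke), assembled with Trinity, merged to unigenes with TGICL, mapped back with Bowtie and quantified with RSEM. The authors deposited for each unigene its length in bases, its expected count from RSEM and its FPKM, which is scaled by length and by the mapped total. No genome was used, so no coordinates are given. Names come from best hits, which can be wrong, and related contigs can share reads. Unigenes not listed in a library were set to 0. Of the whole-series table only names and lengths were used; its 2 columns of per-sample values and the authors' own fold changes, p-values and FDR were not used.

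Expected counts were rounded to whole numbers for the Audic-Claverie test (two-sided, scipy 1.17.1), adjusted by Benjamini-Hochberg over 60308 unigenes, with an FPKM of 0 set to 0.01 and calls at FDR 0.001 and 2-fold. A fold against a library at 0 is a bound against 3 reads in that library. Calls were tested on simulated data that held counting error only, so that test does not bear on variation between scallops. Exact tests of edgeR 4.0.16 with an assumed coefficient of variation, other scalings, minimums, thresholds and name columns were alternatives. Named were, per role, the 2 unigenes with the most reads, each called one, the 3 largest rises and falls (both libraries at 10 reads or more) and their cluster mates, and, of the other metal genes, per role the one with the most reads and up to 2 called ones with the most reads. Unigenes named besides these were chosen after their values were seen. The members, lists and roles were chosen with earlier results of these data known.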

Additional observations from a re-analysis of the deposited data

How the results depend on the processing

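The 17 lower calls and 6 higher calls among the 61 metal genes were recomputed under other settings. Summing the member contigs of each cluster left 15 lower and 3 higher calls and 5 entries past 2-fold higher. A minimum of 50 reads left 5 past 2-fold higher, with no share over all unigenes taken at that minimum. With a coefficient of variation set to 0.2, the exact test of edgeR called 11 lower and 1 higher (4.76% and 5.06% of all unigenes), and with 0.4 it called 5 lower and 1 higher (1.02% and 0.581% of all unigenes). At 0.2 the 3 ferritin calls and 5 of the 6 higher calls were lost. The other lower calls lost at 0.2 were the metallothionein Unigene12634_All, the melanotransferrin CL1912.Contig1_All and the pyruvate dehydrogenase kinase Unigene17253_All. At 0.4 the 5 were the metallothioneins Unigene7880_All, Unigene2995_All, Unigene21740_All and CL2241.Contig2_All and the hephaestin-like Unigene20942_All, and the 1 was CL1912.Contig2_All. Requiring a 4-fold change left 9 lower and 2 higher calls, and 9 lower and 3 higher past 4-fold. The share over all unigenes was not taken at this limit, so these counts have nothing to be set against. Seeking the words in the Nt column as well gave 786 unigenes, 157 called lower and 80 higher (10.7% and 13.3% of all unigenes). Of the 786, 212 were past 2-fold lower and 134 higher (19.0% and 27.3% of all unigenes). Of the 725 unigenes with at least 10 reads that this column alone added, 570 carried the name of 1 manganese superoxide dismutase gene, so that name is not specific. Leaving out non-metazoan best hits removed no member. The median log2 fold change stayed below 0 under every alternative run, though TMM factors and the median of ratios could only lower it. Under TMM factors and the median of ratios, 5 uncalled unigenes changed sign: Unigene7883_All (-0.21 and -0.19), Unigene16436_All (-0.18 and -0.15), CL1479.Contig2_All (-0.23 and -0.20), Unigene15207_All (-0.043 and -0.017) and Unigene19033_All (-0.10 and -0.078). Without the unigene with the most reads, the log2 fold change of a role's summed reads became -0.95 for NRAMP (from -2.50), -0.79 for the copper-transporting ATPase (from -0.03), -1.08 for ferritin (from -1.03), -0.24 for iron export (from -2.48), -0.71 for iron-sulfur assembly (from -0.17), -3.26 for metallothionein (from -1.45), -0.75 for superoxide dismutase (from -0.57) and 0.23 for zinc transporters (from 0.59). It reversed for the transferrin family, to 1.91 (from -0.11), and for the pyruvate dehydrogenase pair, to 0.20 (from -1.09). No paired analysis was possible because each condition had 1 library, and for the same reason no replicate could be left out.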
